A study of Caenorhabditis elegans with 4 samples.

Results

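CBP-1 peaks on chromosome V of Caenorhabditis elegans were taken as every peak that the deposited lists place on that chromosome. The series-wide list held 965 such peaks of 6289 on the 6 nuclear chromosomes, the replicate 1 list 442 of 3121 and the replicate 2 list 306 of 1994. The lists come from chromatin immunoprecipitation and sequencing (ChIP-seq) of mixed-stage embryos of the wild-type laboratory strain N2, a mixed population of males and hermaphrodites, kept at 20 °C and fixed in 2% formaldehyde for 30 minutes. The 2 CBP-1 ChIP samples used an affinity-purified rabbit polyclonal antibody against CBP-1, and 2 input samples were not analysed here. A whole-embryo sample mixes many cell types and ages, so a peak does not say in which cells CBP-1 was bound. Both ChIP samples carry the same genotype and treatment, and the labels do not say whether they came from separate cultures. Positions are in WormBase WS220, and peaks are named by position because genes of WS220 were not used here.

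The CBP/p300 proteins, of which CBP-1 is the worm representative, do not bind a DNA sequence of their own. Transcription factors bring them to promoters and enhancers, where they acetylate histones and act as co-activators. Worm autosomes have gene-dense centres with many conserved genes, and arms that recombine more often and hold more repeats and fast-evolving gene families. Chromosome V is known for its large families of chemoreceptor genes, and its right arm holds the tandem genes of the smallest ribosomal RNA and of a spliced leader RNA.

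The chromosome was the least densely occupied of the nuclear chromosomes. Series-wide peaks numbered 46.1 per Mb on chromosome V (exact Poisson 95% interval 43.3 to 49.1), against 66.9 per Mb on the other 4 autosomes together. The ratio of 0.690 (0.614 to 0.775) was below 1 in a quasi-Poisson regression over bins of about 250 kb (n = 327 bins, p = 1.20e-09, adjusted p = 1.20e-08, Benjamini-Hochberg over 10 tests). Bins were the unit because peaks cluster and single peaks are not independent. Bins were not independent either, as counts of adjacent 250 kb bins on chromosome V had a correlation of 0.539. The fits take bins as independent, so their intervals may be too narrow and their p-values too small. With bins of about 500 kb the interval of this ratio widened to 0.599 to 0.794. The other lists gave 0.625 in replicate 1, from 21.1 against 33.8 peaks per Mb, and 0.664 in replicate 2, from 14.6 against 22.0. Peaks covered 1.64% of chromosome V in the series-wide list, against 1.99% on chromosome IV and 2.52% on chromosome I, the lowest and highest of the other chromosomes. The files hold no read counts, so the depth behind each peak is unknown. Intervals of ratios and odds ratios include the spread between bins but not the correlation of neighbouring bins. Those of single densities and shares cover the counting of peaks only.

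The very strongest peaks were about as frequent on chromosome V as its share of the list, whereas its scores as a whole were slightly lower. The chromosome held 16 of the 100 strongest series-wide peaks and 80 of the strongest 500, which is 16% of each, beside its 15.3% share of all peaks. Its median score was 8.07, with quartiles of 4.94 and 16.3, against a median of 8.96 and quartiles of 5.36 and 18.7 on the other 5 chromosomes. Median width was 251 bp on chromosome V and 260 bp elsewhere. Scores are those the authors deposited; their scale is not stated, and they only rank peaks within a list here. Scores on chromosome V ran from 1.33 to 223.1 in the series-wide list, from 50.01 to 3100 in replicate 1 and from 50.1 to 3100 in replicate 2. The score of 3100 was shared by 6 replicate 1 peaks and 3 replicate 2 peaks on the chromosome, whose order is therefore unresolved.

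Along the chromosome, peaks were densest in the centre. The length of 20.92 Mb, taken as the furthest peak end in any list, was divided into a left arm, a centre and a right arm of equal length, each 6.97 Mb. The left arm ended at position 6974727 and the right arm began at 13949454. The series-wide list had 430 peaks in the centre, 308 in the left arm and 227 in the right arm. These counts correspond to 61.7 peaks per Mb (56.0 to 67.8), 44.2 (39.4 to 49.4) and 32.5 (28.4 to 37.1). The centre exceeded both arms together by a ratio of 1.61 (1.28 to 2.01, 61.7 against 38.4 per Mb; quasi-Poisson regression, n = 84 bins, adjusted p = 0.000330). With bins of about 500 kb the interval of the series-wide ratio widened to 1.216 to 2.125. Replicate 1 gave a ratio of 1.65, from 200 peaks in the centre and 242 in the arms. Replicate 2 gave 1.26 (0.871 to 1.81, n = 84 bins, p = 0.220, quasi-Poisson regression), from 118 and 188 peaks, and the call was not reached there.

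**Figure D1:**
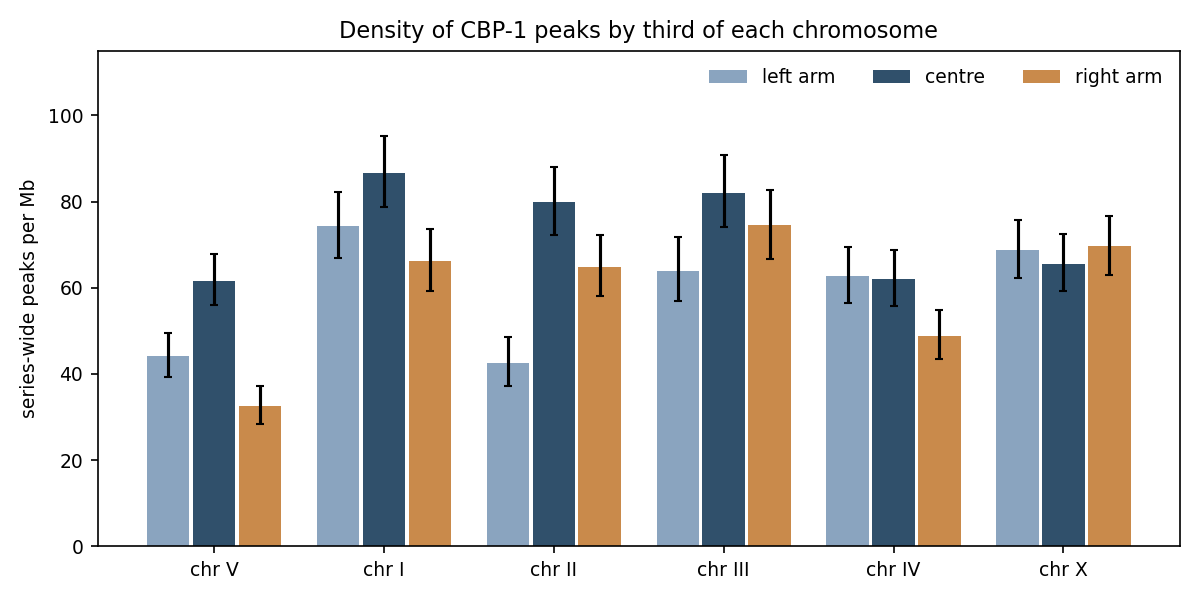
Series-wide peaks per Mb in the left arm, centre and right arm of each nuclear chromosome. Bars give the density and error bars the exact Poisson 95% interval, which covers counting only. The right arm of chromosome V, at 32.5 peaks per Mb, is the lowest bar, and the left arm of chromosome II, at 42.6, and that of chromosome V, at 44.2, come next.

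The steeper gradient on chromosome V was not separated from that of the other autosomes. Its centre-to-arm ratio of 1.61 stood against 1.25 for the other 4 autosomes together, and the interaction term, a ratio of ratios of 1.29 (1.03 to 1.62), missed the threshold after adjustment (quasi-Poisson regression, n = 327 bins, p = 0.0268, adjusted p = 0.0893). Among the other 4 autosomes, the gradient was steepest on chromosome II, with 79.9 peaks per Mb in the centre and 53.7 in the arms. It was shallowest on chromosome IV, with 62.1 and 55.8, and single autosomes were not tested against chromosome V. The arms of chromosome V are where it stood lowest. Its centre, at 61.7 peaks per Mb, was close to the centre of chromosome IV at 62.1 and below those of chromosomes I, II and III, at 86.6, 79.9 and 82.1. Its arms together, at 38.4, lay below the arms of every other autosome, which ran from 53.7 on chromosome II to 70.2 on chromosome I. Taken singly, the left arm of chromosome V, at 44.2 peaks per Mb, was about as sparse as that of chromosome II, at 42.6.

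The arms were not separated from each other in any list. The right arm had 227 series-wide peaks and the left arm 308, a ratio of 0.737 (0.529 to 1.03) that missed the threshold (n = 56 bins, adjusted p = 0.146, quasi-Poisson regression). An exact test on single peaks, which takes them as independent, gave adjusted p = 0.00177 for the same counts. Replicate 1 had 118 peaks in the right arm and 124 in the left, and replicate 2 had 102 and 86. Series-wide peaks that overlapped both replicate lists numbered 54 in the right arm and 54 in the left. Among those sites the ratio was 1.00, with an interval of 0.601 to 1.66.

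The profile in bins of 250 kb showed 1 tall bin, a broad plateau and a long trough. The tall bin, 6000001 to 6250000, had 35 peaks in the series-wide list, 16 in replicate 1 and 10 in replicate 2. It was the fullest of the 83 full bins in the series-wide list and in replicate 1, and it lay in the left arm. The next fullest bins were in the centre, apart from 1 on the right arm. Those in the centre began at 8750001, with 23, 13 and 18 peaks in the series-wide, replicate 1 and replicate 2 lists, at 10000001, with 23, 9 and 3, at 9250001, with 22, 13 and 4, and at 11000001, with 22, 11 and 4. The bin on the right arm, 14750001 to 15000000, tied with the last of these at 22 series-wide peaks and had 14 in replicate 1 and 8 in replicate 2. The bin at 8750001 was the fullest of replicate 2, with 18 peaks beside 23 in the far longer series-wide list. Those counts do not match site by site, as 9 of the 23 overlapped both replicate lists. In the cluster at 8891891, within this bin, replicate 2 had 6 peaks and replicate 1 had 3. The emptiest bin, 19250001 to 19500000, held 1 series-wide peak and no replicate peak. The next 4 held 2 or 3 series-wide peaks and began at 17500001, 2250001, 3000001 and 18000001, all in the arms. The 250 kb bins averaged 11.5 ± 6.25 series-wide peaks (SD, 83 bins).

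**Figure D2:**
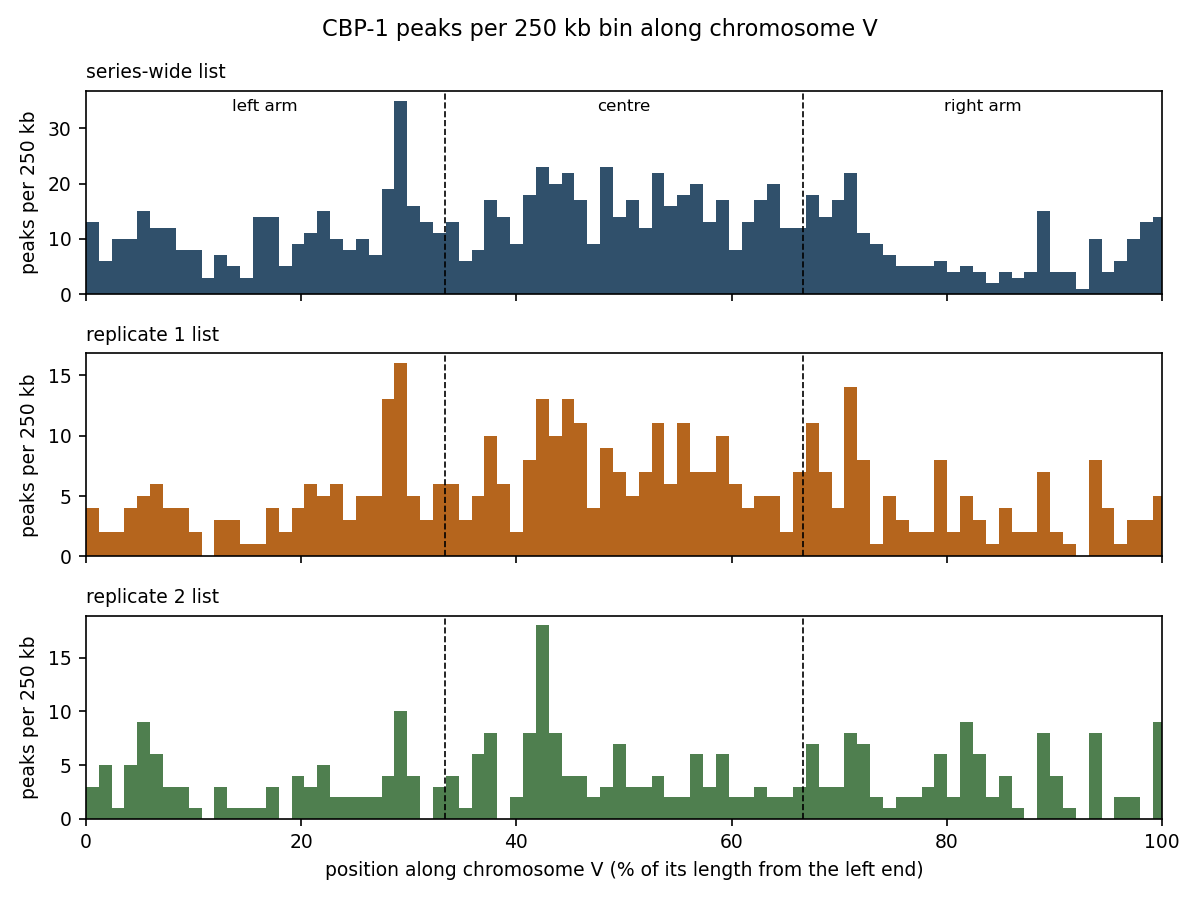
Peaks per 250 kb bin along chromosome V in the series-wide, replicate 1 and replicate 2 lists, with position as a percentage of the length and dashed lines at the boundaries of the centre. The last bin is shorter than 250 kb. The tallest series-wide bin, with 35 peaks, stands in the left arm, and the low stretch on the right arm holds between 2 and 7 series-wide peaks per bin.

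Peaks were unevenly spread at this scale, more so than on most chromosomes. The variance of the series-wide bin counts was 3.40 times their mean on chromosome V. Chromosome II had a higher value, 3.91, and the other 4 chromosomes ran from 1.73 to 2.22. Neighbouring bins on chromosome V held similar counts, with a correlation of 0.539 between adjacent bins, against values from -0.156 to 0.358 on the other chromosomes. Bins with 5 or fewer series-wide peaks made up 18 of 83 on chromosome V, against 5 of 61 on chromosome II, 1 of 60 on chromosome I and 0 on chromosomes III, IV and X. These values describe bins of a single genome, which are not independent samples. Bin counts of the replicate lists had a Pearson correlation of 0.638 and a Spearman correlation of 0.661 over the 83 bins.

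The trough lay on the right arm, from 15.5 to 18.5 Mb, a stretch chosen after its values were seen. All of its 12 bins held between 2 and 7 series-wide peaks, 54 in total or 18.0 per Mb, against 50.8 per Mb over the rest of the chromosome. Replicate 1 had 13 per Mb there and 22.5 elsewhere. Replicate 2 had 12.7 per Mb there and 15.0 elsewhere. The stretch includes the broad run described below, which replicate 2 held as 9 peaks and the other lists as 4. Without the run, an alternative chosen after seeing the data, the stretch had 16.7 peaks per Mb in the series-wide list, 11.7 in replicate 1 and 9.67 in replicate 2. The 54 series-wide peaks of the stretch had a median score of 10.9, beside 8.07 for the whole chromosome, and 19 of 54, or 35.2% (Wilson 95% interval 23.8 to 48.5), overlapped both replicate lists, beside 19.6% of the whole chromosome and 21.8% of all nuclear peaks. Another 15, or 27.8% (17.6 to 40.9), overlapped neither, beside 48.3% and 45.2%. These shares describe a stretch picked by its counts and were not tested.

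Sparse bins lay both inside and outside the trough. Of the 18 bins with 5 or fewer series-wide peaks, 10 lay in the trough. Those 10 held 41 series-wide peaks, of which 16 or 39.0% (25.7 to 54.3) were in both replicates, and 31 replicate 2 peaks, among them the 9 of the run. The other 8 held 29 series-wide peaks, of which 2 or 6.90% (1.91 to 22.0) were in both replicates, and 7 replicate 2 peaks. The 35 bins with 13 or more series-wide peaks had 18.1% (15.3 to 21.4) in both. The bins were chosen by their counts, and these differences were not tested.

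In the series-wide list, chromosome V had the largest share of its length in long stretches without a peak, as a description without a test. A gap was counted as peak-free when at least 100 kb separated the edges of neighbouring series-wide peaks. Chromosome V had 33 such gaps, which together made up 22.5% of its length. The other 5 chromosomes together had 28, or 4.76% of their length, with 13 on chromosome IV, 9 on chromosome II and 2 each on chromosomes I, III and X. Single long gaps were not particular to chromosome V. The longest was 304356 bp on chromosome II, 302129 bp on chromosome V and 251555 bp on chromosome I. Typical spacing differed much less: the median gap was 8922 bp on chromosome V and 9020 bp on chromosome IV, and 7325 to 7673.5 bp on the remaining chromosomes. The upper quartile of the gaps was 26877 bp on chromosome V, against 18130 to 23405 bp on the other chromosomes. The 90th percentile was 59867 bp on chromosome V, against 32101 to 43909 bp on the other chromosomes. The wider spacing on chromosome V was thus not confined to the longest gaps. It exceeded that of every other chromosome at the upper quartile and the 90th percentile, but not at the median.

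**Figure D3:**
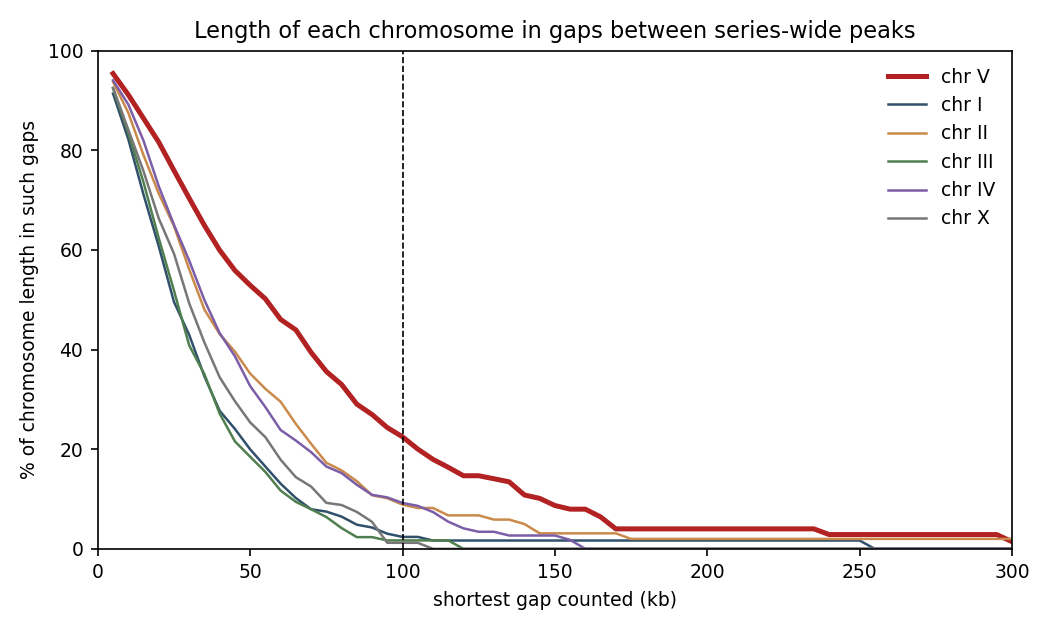
Share of each chromosome's length (y axis, %) that lies in gaps between neighbouring series-wide peaks of at least the length on the x axis (kb). The dashed line marks 100 kb, where chromosome V stands at 22.5% and the next chromosome, IV, at 9.21%.

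The peak-free gaps were mostly in the arms. The right arm held 15, which took up 32.0% of its length, the left arm 12 (24.5%) and the centre 6 (about 11%). The left arm of chromosome II was close to that of chromosome V, with 22.4% of its length in such gaps. The longest on chromosome V ran from 19194411 to 19496539, a length of 302.1 kb on the right arm. The second, 2303188 to 2600601, spanned 297.4 kb of the left arm and held no peak of either replicate. Next, 17618658 to 17857815, spanned 239.2 kb of the right arm. Rank 4, 7247984 to 7415784, was the longest in the centre at 167.8 kb. The next 5 gaps, between 153.8 and 167.6 kb, began at 16370309, 18233624, 3815189, 16042791 and 18079497, and the tenth, of 149.7 kb, at 2949253.

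In 3 places a single peak separated a pair of peak-free gaps. The peak from 18233326 to 18233623, with a score of 30.4, lay between gaps of 153.8 and 166.7 kb. The peak from 16203871 to 16204024, with a score of 5.75, lay between gaps of 161.1 and 137.6 kb. The peak from 3315356 to 3315588, with a score of 9.34, lay between gaps of 105.9 and 119.4 kb. Their scores thus ranged from below the chromosome's median of 8.07 to above its upper quartile of 16.3. The peak at 18233326 overlapped replicate 1 only. Those at 16203871 and 3315356 overlapped neither replicate list, as did 48.3% of the chromosome's peaks. All 3 are described after a look at the values.

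Few replicate peaks could lie in the gaps, because a peak that overlaps the series-wide list cannot lie inside one. Of the 33 gaps, 27 held no peak of either replicate. A single gap held a replicate 1 peak, of 281 bp and score 63.3. The 5 gaps with a replicate 2 peak held 1 each, 104 to 119 bp wide with scores from 51.9 to 59.6, close to the lowest score of 50.1 in that list. The series-wide list overlapped 438 of 442 replicate 1 peaks and 277 of 306 replicate 2 peaks, so this emptiness is no independent observation. Only the 4 replicate 1 and 29 replicate 2 peaks absent from the series-wide list could lie in a gap. Of these, 1 and 5 did, beside the 22.5% of the length that the gaps took up.

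**Figure D4:**
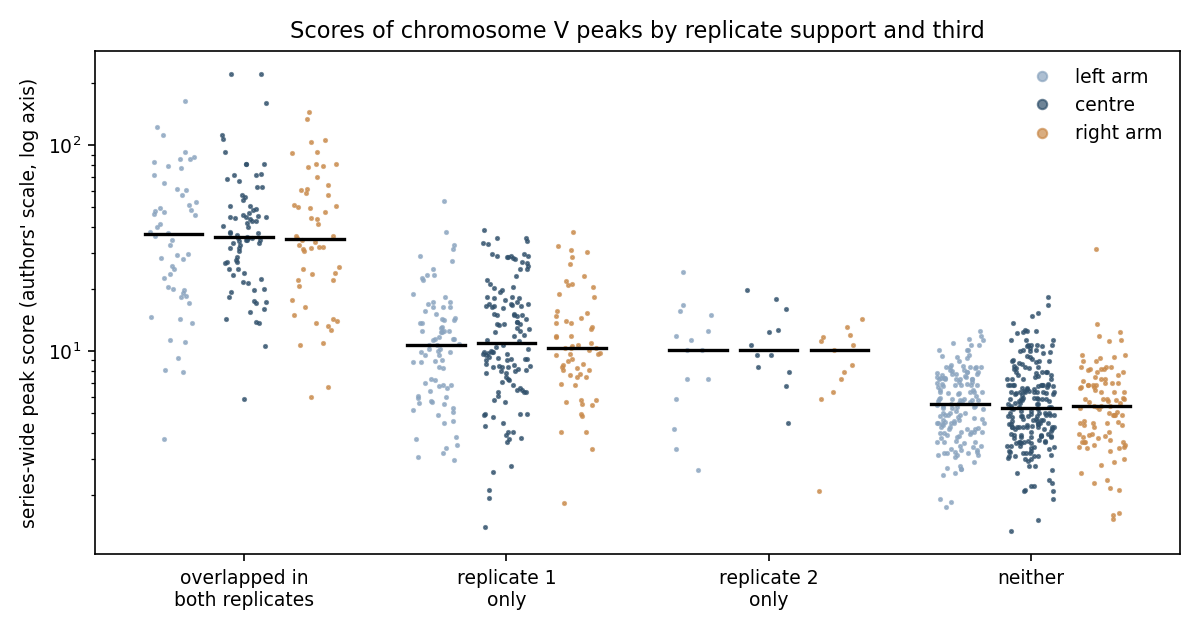
Series-wide score (authors' scale, log axis) of each of the 965 chromosome V peaks, by overlap with the replicate lists and by left arm, centre and right arm. Each point is a peak and each black line a median. Peaks in both replicates have a median of 36.0 and those in neither a median of 5.43, and the arms and centre overlap within every class.

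Replicate support on chromosome V was near the background of the series. Of its 965 series-wide peaks, 189 or 19.6% (17.20 to 22.2) overlapped both replicate lists by at least 1 bp, beside 21.8% of all 6289 nuclear peaks. The odds ratio of 0.854 against the other 5 chromosomes (0.702 to 1.04) missed the threshold (adjusted p = 0.168, quasi-binomial regression over 399 bins). Replicate 1 overlapped 459 of the peaks or 47.6% (background 50.6%), and replicate 2 overlapped 229 or 23.7% (background 26.1%). Replicate 1 alone supported 270 peaks or 28.0% (background 28.8%), replicate 2 alone 40 or 4.15% (background 4.28%), and neither list 466 or 48.3% (background 45.2%). Support was similar where scores were similar. In the strongest of 5 score classes of the whole list, 78.0% of chromosome V peaks (71.5 to 83.4) and 77.9% of peaks on the other chromosomes (75.3 to 80.3) were in both replicates. In the next class the shares were 22.7% (16.8 to 30.0) and 26.0% (23.5 to 28.7).

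Support did not differ detectably between the arms, or between the centre and both arms together. Of the right arm's series-wide peaks, 23.8% (18.7 to 29.7) were in both replicates, against 17.5% (13.7 to 22.2) of the left arm's, an odds ratio of 1.47 (0.913 to 2.36, adjusted p = 0.168, quasi-binomial regression over 56 bins). The centre had 18.8% and both arms together 20.2%, an odds ratio of 0.918 (quasi-binomial regression, 0.628 to 1.34, adjusted p = 0.653). The interval for the centre leaves room for a moderate difference in either direction. That for the arms leaves room for much higher odds in the right arm, but only for slightly lower odds. Finer stretches of 2.09 Mb were not tested. Their shares in both replicates were lowest from 2092419 to 4184836, at 8.06%, or 5 of 62 series-wide peaks. They were highest from 16739345 to 18831762, at 31.0%, or 13 of 42. The share of peaks with a score above the list's median was 47.2% in the centre and 44.1% in the arms, beside 50% of all nuclear peaks (quasi-binomial odds ratio 1.13, 0.875 to 1.47, adjusted p = 0.425). The share wider than the list's median was 49.1% in the centre and 46.4% in the arms, beside 49.7% of all nuclear peaks (quasi-binomial odds ratio 1.12, 0.843 to 1.47, adjusted p = 0.490). The density of peaks differed along the chromosome, whereas no difference in score or width passed the test.

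Supported peaks were stronger and wider than the rest. The 189 peaks that both replicates held had a median score of 36.0 (quartiles 22.5 and 57.2) and a median width of 453 bp. Peaks in replicate 1 alone had medians of 10.4 and 313.5 bp, peaks in replicate 2 alone 10.1 and 220 bp, and peaks in neither 5.43 and 200 bp. The lists share their samples, and width itself eases an overlap of 1 bp, for which no correction was made. The strongest series-wide peak that neither replicate held, with a score of 31.3, covered 20923838 to 20924180, the last peak of the chromosome. The second of that kind, at 8348883 to 8349113, scored 18.4. Both are named here for that rank, after their values had been seen.

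The replicate lists agreed on chromosome V about as often as on the genome. Replicate 2 peaks overlapped a replicate 1 peak in 237 of 306 cases, or 77.5% (72.4 to 81.8, background 79.7%). Replicate 1 peaks overlapped a replicate 2 peak in 194 of 442 cases, or 43.9% (39.3 to 48.6, background 44%). For replicate 2 the share was 85.6% (78.1 to 90.8) in the centre, 72.1% (61.8 to 80.5) in the left arm and 72.5% (63.2 to 80.3) in the right arm. Midpoints of matched peaks lay close together: over the 158 pairs that matched 1 to 1, the median distance was 36.3 bp, while replicate 1 peaks were 2.45 times as wide as their partners in the median. Of all replicate peaks in the centre, 62.9% belonged to replicate 1, against 56.3% in the arms, a difference that missed the threshold (odds ratio 1.32, 0.974 to 1.78, adjusted p = 0.146, quasi-binomial regression over 83 bins).

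Some strong peaks were nevertheless found in a single replicate. The strongest replicate 1 peak without a partner, 8546 to 9282 near the left end, scored 806.8 and ranked 41 of 442. The second, 12465244 to 12465970, scored 604.6, and the nearest replicate 2 peak was 44025 bp away. The other 3 of the strongest 5 began at 8000762, 4964002 and 4498975 and scored 558.7, 506.5 and 411.6. All 5 were in the series-wide list, with scores from 24.96 to 53.7. The strongest replicate 2 peak without a partner, 14755373 to 14755485, scored 182.5 and lay only 73 bp from a replicate 1 peak. The next 2, 18566391 to 18566552 and 104559 to 104814, scored 151.6 and 128.8 and lay 14980 and 50427 bp from the nearest replicate 1 peak. The one after, 18632663 to 18632708, was 46 bp wide, scored 113.3 and was absent from the series-wide list. The last of the 5 began at 7237254 and scored 103.2.

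Few replicate peaks were missing from the series-wide list, and those were short. Replicate 1 had 4 of them, 0 in the centre, and 438 of 442 or 99.1% of its peaks overlapped the series-wide list (background 99.1%). Replicate 2 had 29, with 15 in the right arm, 9 in the left arm and 5 in the centre, and 277 of 306 or 90.5% overlapped (background 93.3%). The 29 had a median width of 110 bp, against 176 bp for the 277 that overlapped.

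The strongest sites of the chromosome were spread over its arms and its centre, and all were present in both replicates. Of the 15 series-wide peaks of highest score, 6 lay in the centre, 4 in the left arm and 5 in the right arm. The first pair, 9087371 to 9088774 (score 223.1) and 9088820 to 9090440 (score 222.2), stood side by side in the centre and ranked 4 and 5 among all nuclear peaks. Replicate 1 gave both the shared score of 3100, and replicate 2 gave them 897.4 and 925.3, at ranks 11 and 9 on the chromosome. They belonged to a cluster of 5 series-wide peaks within 4913 bp, from 9086779 to 9091691, that 5 replicate 1 peaks and 6 replicate 2 peaks also marked. Just to its left lay a peak-free gap of 130.2 kb, from 8956585 to 9086778. The highest scores of the chromosome thus stood beside a long stretch with no peak in any of the 3 lists.

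In the left arm the strongest peak was 1804775 to 1805615, with a score of 165.1. Replicate 1 scored it 2661 and replicate 2 scored it 474.5. It was followed by 1151134 to 1152079 (score 123.3), 1871657 to 1872131 (112.4), 5780613 to 5781073 (92.9) and 5505000 to 5505387 (87.4). In the centre, after the first pair, came 9343693 to 9344580 (score 160.0), 10897197 to 10897490 (111.7) and 9730795 to 9731641 (107.8). The peak at 10897197 was only 294 bp wide, and scored 597.7 in replicate 1 and 320.4 in replicate 2.

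In the right arm the strongest peak was 19522415 to 19523069, with a score of 145.5. Replicate 1 scored it 2476 and replicate 2 scored it 873.7. It lay to the right of the longest peak-free gap of the chromosome. Next came 14685592 to 14686584 (score 134.3), 14038383 to 14038995 (105.9), 17951086 to 17951732 (103.5) and 17119884 to 17126645 (92.7). The last of these belongs to the broad run described below. The peak at 14038383 was called as 3 short peaks in replicate 2, the highest with a score of 151.3, and as 1 peak with a score of 1288 in replicate 1.

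Broad peaks were rare. Of the 965 series-wide peaks 11, or 1.14% (0.638 to 2.03), were wider than 2000 bp, beside 0.684% of all nuclear peaks. The narrowest of the 11 was 2312 bp wide, and the widest peak below the limit 1869 bp. The widest, 7916835 to 7925040, covered 8206 bp of the centre with a series-wide score of 49.1. Replicate 1 held it as a peak of 8184 bp and replicate 2 as 3 peaks, the widest of 4528 bp, and both gave it 3100. A left-arm peak of 2731 bp, 5283169 to 5285899, also scored 3100 in both replicates and had nearly the same edges in all 3 lists, with widths of 2706 bp in replicate 1 and 2584 bp in replicate 2.

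Not every broad peak was shared. The peak from 7988878 to 7991371 scored 28.9 and 89.1 in the series-wide list and in replicate 1, and replicate 2 had no peak there. The neighbours 10607138 to 10609850 and 10610002 to 10612436 were a single replicate 1 peak of 6905 bp with a score of 1730, of which replicate 2 held only 690 bp, within the second, at a score of 98.04. The peak from 9340398 to 9343529, next to the strong peak at 9343693, scored 1773 at the stronger of its 2 peaks in replicate 1, and replicate 2 held 119 bp of it at 60.5. On the right arm, 17308519 to 17311617 scored 2035 in replicate 1 and had 3 peaks in replicate 2, the highest at 147.5. The other broad peaks were 264954 to 267272 and 16707165 to 16709476, which replicate 2 held as 4 and 3 peaks and replicate 1 as 1 and 2, and the pair within the run.

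The broad run lay on the sparse part of the right arm, which also held the broad peaks at 16707165 and 17308519. In the series-wide list it was 4 peaks from 17115349 to 17132151, a span of 16803 bp of which 12791 bp or 76.1% was called. The nearest series-wide peaks lay 149417 bp to its left and 78117 bp to its right, the second below the 100 kb of a peak-free gap. The widths of its 4 peaks, from left to right, were 802, 1181, 6762 and 4046 bp, and their scores were 64.0, 81.5, 92.7 and 92.1. Those scores all stood far above the chromosome's upper quartile of 16.3.

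**Figure D5:**
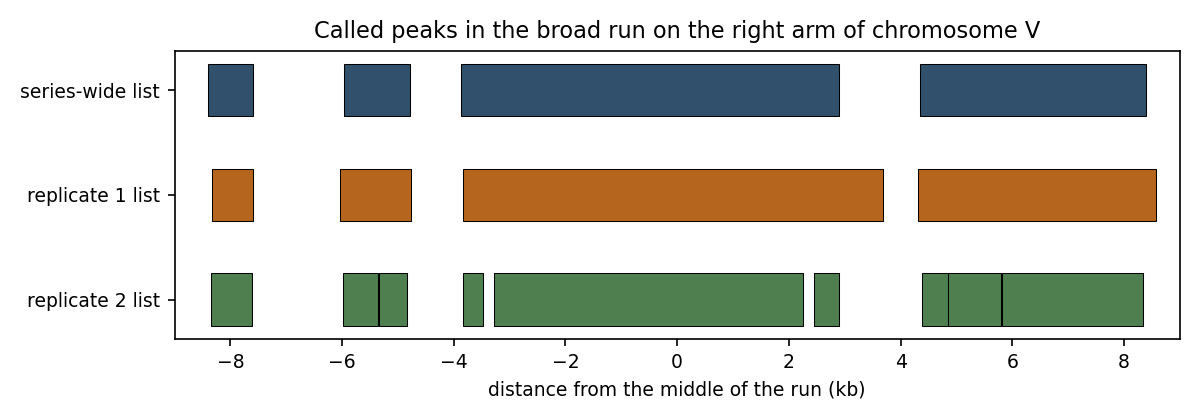
Peaks called in the run on the right arm in the series-wide, replicate 1 and replicate 2 lists, as blocks at their distance in kb from the middle of the run. The series-wide and replicate 1 lists have 4 blocks each, and replicate 2 has 9 blocks over the same 4 segments.

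All 3 lists drew the run within nearly the same outline. Replicate 1 had 4 peaks from 17115418 to 17132315, with widths of 729, 1257, 7537 and 4260 bp and scores of 699.3, 1280, 3100 and 3100. Replicate 2 had 9 peaks from 17115398 to 17132082, with scores from 146.9 to 3100. Its peaks 2 and 3 were 13 bp apart, and its peaks 7 to 9 were 4 and 13 bp apart, so 9 calls fell into the same 4 segments. Of the 12139 bp that replicate 2 covered, 12119 bp or 99.8% lay inside replicate 1 peaks, and those made up 87.9% of the replicate 1 bases. The run held 3.72% of the series-wide peak bases of the chromosome, 5.19% of those of replicate 1 and 13.9% of those of replicate 2.

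The run therefore weighs most in replicate 2. That list had 9 of its 102 right-arm peaks there, in the same 4 segments, while replicate 1 had 4 of 118 and the series-wide list 4 of 227. In bases it covered no more of the run than replicate 1 did, 12139 against 13783 bp. Its peaks covered 87624 bp of the whole chromosome, against 265575 bp in replicate 1. The tandem ribosomal RNA genes named above also lie on this arm. Whether the run covers them was not tested.

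Close neighbours were about as frequent on chromosome V as on chromosome II, as a description without a test. Gaps under 1 kb made up 19.4% of all gaps on chromosome V and 19.8% on chromosome II. When peaks at most 1 kb apart were joined, its 965 peaks became 777 regions, of which 655 held a single peak, 81 a pair and 41 held 3 or more. Clusters took in 32.1% of its peaks, against 24.8% on chromosome I and 31.3% on chromosome II, the lowest and highest of the other chromosomes. The cluster with the most peaks, 7 of them, spanned 4272 bp from 6171847 to 6176118, inside the fullest 250 kb bin. Its highest score was 10.1, with 1 peak in replicate 1 and 0 in replicate 2. That replicate 1 peak overlapped the series-wide peaks of the cluster from 6173929 onward, and not those further left. A cluster of 6 at 8891891 to 8898580 scored up to 40.3 and held 3 replicate 1 peaks and 6 replicate 2 peaks. Another cluster of 6, at 3437246 to 3440832, scored at most 6.02 and held 1 replicate 1 peak and 0 replicate 2 peaks. The replicate 1 peak overlapped all 6 series-wide peaks of that cluster. Clusters with many calls were thus both strong, supported sites and groups of weak peaks that replicate 2 lacked.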

How the data were processed

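Per the labels' protocols, fixed embryos were sonicated and each immunoprecipitation took 2 mg of extract, of which 10% became input. Per the file headers, the build is WormBase WS220. BWA and ce10 are named per the submitters' processing notes. The lists' source column names MACS v2 for the series-wide list but MACS for either replicate, so widths and scores were not compared between lists as measures of binding. The deposited score is the authors' own. The sources used here do not give the call threshold, the control or any pooling of reads. Samples were grouped by title.

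A peak was placed by its midpoint. Each arm and centre was cut into bins of about 250 kb. Densities were compared by quasi-Poisson and shares by quasi-binomial regression over bins, two-sided, with the dispersion taken as at least 1 and p-values adjusted over 10 tests by the Benjamini-Hochberg method. Intervals of ratios are 95% intervals from those fits, and of shares Wilson intervals. The procedures were tested on simulated data with bins drawn independently. Adjacent bins of chromosome V were correlated (0.539), so the simulation cannot show how the fits behave under that dependence. Named peaks, gaps and bins follow rules of rank, width and position: the 15 highest scores, the highest 5 of each arm and centre, all peaks over 2000 bp, the 10 longest gaps, the 5 fullest and emptiest bins, and the 5 strongest peaks of each replicate absent from the other. The members and lists were chosen with earlier results of these data known. The fits used statsmodels 0.14.6 with scipy 1.17.1 under Python 3.11.15; figures used matplotlib 3.10.9, and arrays numpy 2.4.6. Mitochondrial peaks, inputs, sequences and genes were not analysed here, the last 2 for want of a WS220 genome and annotation.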

Additional observations from a re-analysis of the deposited data

How the results depend on the processing

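Of 83 alternative values, 68 did not reverse and kept their side of the threshold, or moved by less than the replicate lists' spread. The low density of chromosome V kept its call under all 8 alternatives, from 0.592 to 0.690. The ratio of its centre to its arms lost its call among peaks in both replicates (1.50, n = 84 bins, adjusted p = 0.128) and without replicate 1 (1.26, adjusted p = 0.314); over the single replicate lists it ran from 1.26 to 1.65. The contrast of that ratio with the other autosomes passed the threshold in an exact test on single peaks (1.29, adjusted p = 0.00148), with the middle 50% as centre (1.45, adjusted p = 0.00366) and with peaks within 1 kb merged (1.37, adjusted p = 0.0107). The right arm against the left passed it in an exact test on single peaks (0.737, adjusted p = 0.00177), was 1.00 among peaks in both replicates, and turned without replicate 1 (1.19, against 0.952 without replicate 2). The ratio of 1.00 has no direction and is counted among the 68. The centre's odds of support turned under reciprocal cover of 50% (1.11), and its odds of wide peaks turned among peaks in both replicates (0.939) and with merging (0.983). The replicate 1 share in the centre passed the threshold with the middle 50% as centre (quasi-binomial odds ratio 1.65, adjusted p = 0.00545). Peak-free gaps took up 80.8% of the chromosome for peaks in both replicates, 48.1% above the median score, and from 48.7% to 70.0% over the single replicate lists, since fewer peaks leave longer gaps. With gaps of at least 150 kb they took up 8.70%, which is within the SD of 15.1 percentage points between the replicate lists and is counted among the 68. The cause of the other changes was not tested. No paired analysis was possible because only 1 group, the ChIP samples, has peak lists here. Without read depth, a stretch that holds no peak cannot be called unbound.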
